A study of Mus musculus with 13 samples.

Results

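The transcripts described here are those of 10 mouse genes for growth factor receptors and co-receptors of early blood vessel and blood development, out of 45250 genes in the expression table. They were chosen by gene symbol: the VEGF receptors Kdr, Flt1 and Flt4, the VEGF and semaphorin co-receptors Nrp1 and Nrp2, the TIE receptors Tek and Tie1, the stem cell factor receptor Kit, and the PDGF receptors Pdgfra and Pdgfrb. Each symbol matched 1 row, and all 10 genes passed the filter on low values. RNAseq was carried out on cells differentiated in culture from mouse embryonic stem (ES) cells. Flk-1+ cells, the haemangioblast stage, were isolated from embryoid bodies of ES cells that were wild-type (WT, line CCB), Lmo2-/- or Tal1-/-, with 3 libraries of each genotype. HE1, the first stage of haemogenic endothelium, was sorted from blast cultures of WT and Lmo2-/- Flk-1+ cells as Kit+ Tie2+ CD41- cells, with 2 libraries of each genotype. Lmo2 and Tal1 encode subunits of one transcription factor complex of blood progenitors. Each genotype was represented by its own ES line, so a genotype cannot be told apart from its line, and the study describes the libraries of a group as biological replicates without stating whether they came from separate differentiations.

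The Flk-1 antibody recognises the product of Kdr, and Tie2 is the product of Tek. Kdr in Flk-1+ cells and Tek and Kit in HE1 were thus selected by the sorts, and their levels across the stages are given as a description of the sorted cells. HE1 was cultured from Flk-1+ cells, and Flk-1 was not part of the HE1 gate. VEGF-A binds KDR, the main signalling receptor of vascular progenitors, and FLT1, which can act as a decoy, while FLT4 binds VEGF-C and VEGF-D and is best known from lymphatic endothelium. Neuropilins have short cytoplasmic tails and hand VEGF to the VEGF receptors, or semaphorins to plexins. TEK is the receptor of the angiopoietins, and TIE1 is its partner, which lacks a well-established ligand of its own. KIT binds stem cell factor and marks haemogenic endothelium and blood progenitors. In early mesoderm KDR and PDGFRA mark diverging populations, vascular and blood progenitors on the one side and paraxial or mesenchymal mesoderm on the other, and PDGFRB is typical of mural and mesenchymal cells.

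Lmo2 itself lay between 21.6 and 30.8 FPKM in the WT Flk-1+ libraries and between 2.17 and 6.48 FPKM in the Lmo2-/- ones. Its level in HE1 did not separate the genotypes. It was 4.30 and 20.6 FPKM under the WT label against 6.42 and 0 FPKM under the Lmo2-/- label, so directions in HE1 rest on the labels. Tal1 lay between 2.74 and 3.41 FPKM in the Tal1-/- libraries and between 22.0 and 37.4 FPKM in WT Flk-1+ cells. Lmo2 was also low in the Tal1-/- libraries, at 0, 7.58 and 1.29 FPKM. In Lmo2-/- Flk-1+ cells Tal1 was 6.51, 29.0 and 6.64 FPKM, of which replicate 1 lay within the WT range. FPKM are fragments per kilobase of transcript, scaled to the library, and the depth behind them is unknown because the files hold no counts. Lmo2-/- HE1 replicate 1 stood apart from the other libraries, with 9694 genes above 0 against 11861 to 15641. Of 4079 genes with a median above 10 FPKM, 191 were listed at 0 in it, against at most 59 elsewhere. Of the endothelial markers, Cdh5, Pecam1 and Eng were above 70 FPKM in all HE1 libraries. Emcn and Etv2 were listed at 0 in both libraries of Lmo2-/- HE1, and Sox17, Sox18, Icam2 and Esam were at most 6.03 FPKM there. In WT HE1 Emcn was 7.84 and 8.02 FPKM, and Etv2 was 2.32 and 1.36 FPKM. Sox17, Sox18 and Esam were at least 6.70 FPKM in WT HE1. Icam2 overlapped, at 1.62 and 16.4 FPKM in WT and 3.87 and 0 FPKM in Lmo2-/- HE1. Sox17, Sox18 and Icam2 were listed at 0 in Lmo2-/- HE1 replicate 1.

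The positions are those of build GRCm38. Pdgfra (chr5:75152292-75198215), Kit (chr5:75574916-75656722) and Kdr (chr5:75932827-75978458, minus strand) are neighbours on chromosome 5, separated by 376.7 and 276.1 kb. Flt1 lies farther along the same chromosome (chr5:147561604-147726011, minus strand). Tek (chr4:94739289-94874976) and Tie1 (chr4:118471191-118490061, minus strand) are both on chromosome 4. Flt4 is at chr11:49609263-49652739, Nrp1 at chr8:128359073-128505462 and Nrp2 at chr1:62703285-62818695. The row of Pdgfra also names the microRNA gene Mir7025 and that of Nrp1 the gene Mir1903, so reads of these could not be separated.

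RefSeq (GRCm38.p6) gave the promoter of 9 of the 10 genes, and 4 are shown, because Tek and Tie1 had the steepest stage differences, Pdgfra had the opposite one in WT cells, and Kdr is the gene of the sort. Each is the 250 bases before the start, 5' to 3' on the strand of the gene: Tek (chr4:94739039-94739288), Tie1 (chr4:118489850-118490099), Pdgfra (chr5:75152001-75152250) and Kdr (chr5:75978456-75978705). The start is that of RefSeq and can differ from the gene positions given above. For Tie1 it lies inside the stated position, and so does most of its window. Capitals mark E-boxes (CANNTG, the kind of site that TAL1 dimers bind) and ETS motifs (GGAAGT or ACTTCC), and GATA motifs (AGATAA or TTATCT) would be marked likewise.
Tek: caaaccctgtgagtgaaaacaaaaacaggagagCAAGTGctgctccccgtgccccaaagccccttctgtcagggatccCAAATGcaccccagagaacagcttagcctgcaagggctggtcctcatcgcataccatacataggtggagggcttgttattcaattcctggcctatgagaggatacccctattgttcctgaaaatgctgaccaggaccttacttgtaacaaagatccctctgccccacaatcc
Tie1: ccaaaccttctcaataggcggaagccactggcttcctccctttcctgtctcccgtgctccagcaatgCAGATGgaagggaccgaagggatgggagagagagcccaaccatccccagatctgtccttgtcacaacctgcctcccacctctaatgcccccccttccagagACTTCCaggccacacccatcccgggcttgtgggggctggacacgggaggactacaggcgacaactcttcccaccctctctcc
Pdgfra: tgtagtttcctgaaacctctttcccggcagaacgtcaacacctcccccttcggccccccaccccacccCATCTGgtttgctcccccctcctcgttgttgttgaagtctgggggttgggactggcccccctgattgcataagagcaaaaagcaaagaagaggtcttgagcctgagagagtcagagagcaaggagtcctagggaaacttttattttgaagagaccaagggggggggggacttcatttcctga
Kdr: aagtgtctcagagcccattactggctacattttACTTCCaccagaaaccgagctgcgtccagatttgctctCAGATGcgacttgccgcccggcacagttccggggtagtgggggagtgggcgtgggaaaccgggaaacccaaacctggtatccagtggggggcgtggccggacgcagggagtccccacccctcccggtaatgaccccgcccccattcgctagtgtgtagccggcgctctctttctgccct
An E-box was found in 5 of the 9 promoters (Kdr, Flt4, Tek, Tie1 and Pdgfra), against 66.2% of 32851 mouse promoters of the same length. An ETS motif was found in 3 (Kdr, Flt1 and Tie1), against 19.7%. None of the 9 held these letters of a GATA motif, against 9.99% of all promoters. All motifs were read on both strands, and the motifs searched do not overlap in the windows shown. The E-boxes of Tek lay 217 and 172 bases before the start, that of Tie1 183 bases, that of Pdgfra 182 bases and that of Kdr 179 bases. The promoters of Tek and Pdgfra had a GC content of 51.2% and 54.4%, near the median of all promoters (52.4%), and those of Tie1 and Kdr 60.4% and 61.6%. Matches of this kind describe the letters in the window and are not binding sites.

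Within WT Flk-1+ cells Kdr had the highest level, with 100.2 FPKM or more in every library, followed by Nrp2, Nrp1, Pdgfra and Flt1, each of which overlapped with its neighbour in this order. Flt4, Pdgfrb and Kit were below 12 FPKM, and Tek and Tie1 were near the bottom, with at most 2.27 and 0.610 FPKM. In WT HE1 the order was Kdr, Nrp2, Tek, Flt1, Nrp1, Kit, Tie1, Flt4, Pdgfrb and Pdgfra, and Kit and Tie1, as well as both PDGF receptors, overlapped with their neighbour in the order. In Lmo2-/- HE1 the neuropilins were at the top, ahead of Tek and Kdr, and Pdgfra followed. FPKM are per length, which allows such comparisons between genes. Among all tested genes Kdr was above percentile 96 in each library.

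**Figure D1:**
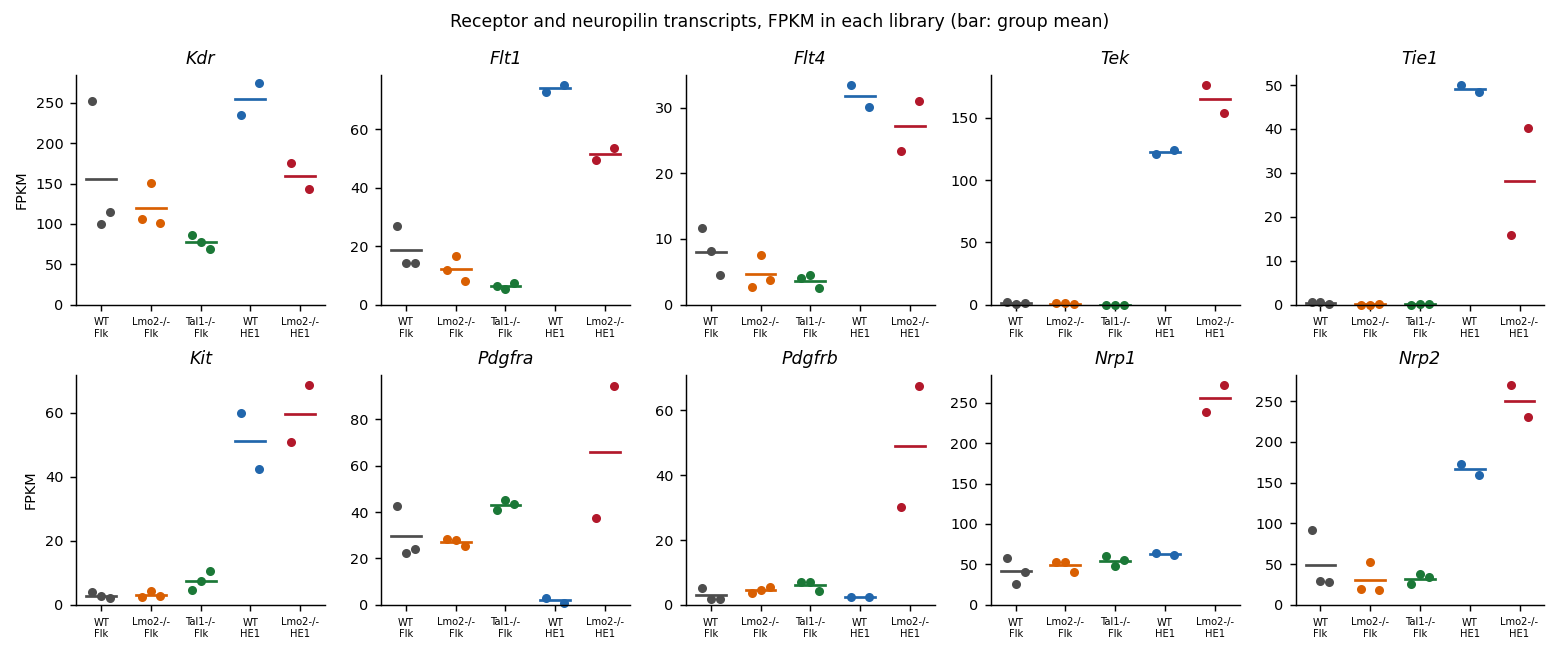
FPKM of the 10 genes in each of the 13 libraries, by genotype and stage; points are libraries and horizontal bars group means, and each panel has its own axis from 0. Tek, Tie1 and Kit are near the axis in all Flk-1+ groups, and Pdgfra is near it in WT HE1, at 1.01 and 2.98 FPKM.

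None of the 10 genes passed the test between WT and Lmo2-/- Flk-1+ cells, and 0% of the 13802 tested genes did. The test was limma on log2(FPKM + 1), adjusted over all tested genes, and a call needed an adjusted p under 0.05 together with a group mean over 10 FPKM. The differences ran from -0.71 for Flt4 to 0.61 for Pdgfrb on that scale, none had an unadjusted p below 0.05, and 307 genes of all did. Tie1 was the 1 gene of the 10 whose libraries did not overlap, against 8.21% of all genes. It was below 1 FPKM in every Flk-1+ library and passed the filter on low values only through HE1. The median difference of the 10 was -0.35, and that of all genes -0.01.

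Between WT and Tal1-/- Flk-1+ cells again none of the 10 was called, with 0% of all genes, but the libraries of 6 of the 10 did not overlap, against 12.6% of all genes. Kdr, Flt1, Flt4, Tek and Tie1 were lower in every Tal1-/- library than in every WT library (7.4% of all genes were), and Kit was higher (5.25% were). Of these, 5 had an unadjusted p below 0.05, as did 843 of all genes. The other, Tie1, was below 1 FPKM in every Flk-1+ library. Flt4 separated narrowly, at 4.54 FPKM or more in WT and 4.45 FPKM or less in Tal1-/- cells. The median over the 10 genes was -0.42 against -0.01 over all. Between Lmo2-/- and Tal1-/- Flk-1+ cells none of the 10 was called, against 0.0145% of all genes, and 5 did not overlap, against 13.3%. Those were Kdr, Flt1 and Tek, lower in Tal1-/- cells (6.66% of all genes), and Kit and Pdgfra, higher (6.59%). The Tal1-/- libraries are shared by these comparisons, and so are the WT and Lmo2-/- ones.

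In HE1, Pdgfra, Pdgfrb and Nrp1 were higher in Lmo2-/- than in WT cells and were called, which is 3 of 10 against 2.15% of all genes called higher (3.01% in both directions), and none was called lower, against 0.855%. The libraries of 8 of the 10 did not overlap, against 39.7% of all genes, since 2 against 2 libraries often separate. In the WT step from the Flk-1+ stage to HE1, 6 of the 10 rose (Flt1, Flt4, Tek, Tie1, Kit and Nrp2, of which Tek and Kit are in the HE1 gate), against 6.04% of all genes, and Pdgfra fell, against 0.942%, of 6.98% called in all. In the Lmo2-/- step 8 of the 10 rose, against 17.2% of all genes, and 19.6% were called in all. These were the same 6 genes with Pdgfrb and Nrp1. In the medians, the 10 genes differed by 0.32 between the HE1 groups, by 1.94 from Flk-1+ to HE1 in WT and by 2.73 in Lmo2-/- cells, and all genes by 0.15, 0.11 and 0.30. The interaction of genotype and stage, which tests whether the step from Flk-1+ to HE1 differs between WT and Lmo2-/-, called Pdgfra of the 10, against 0.348% of all genes.

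**Figure D2:**
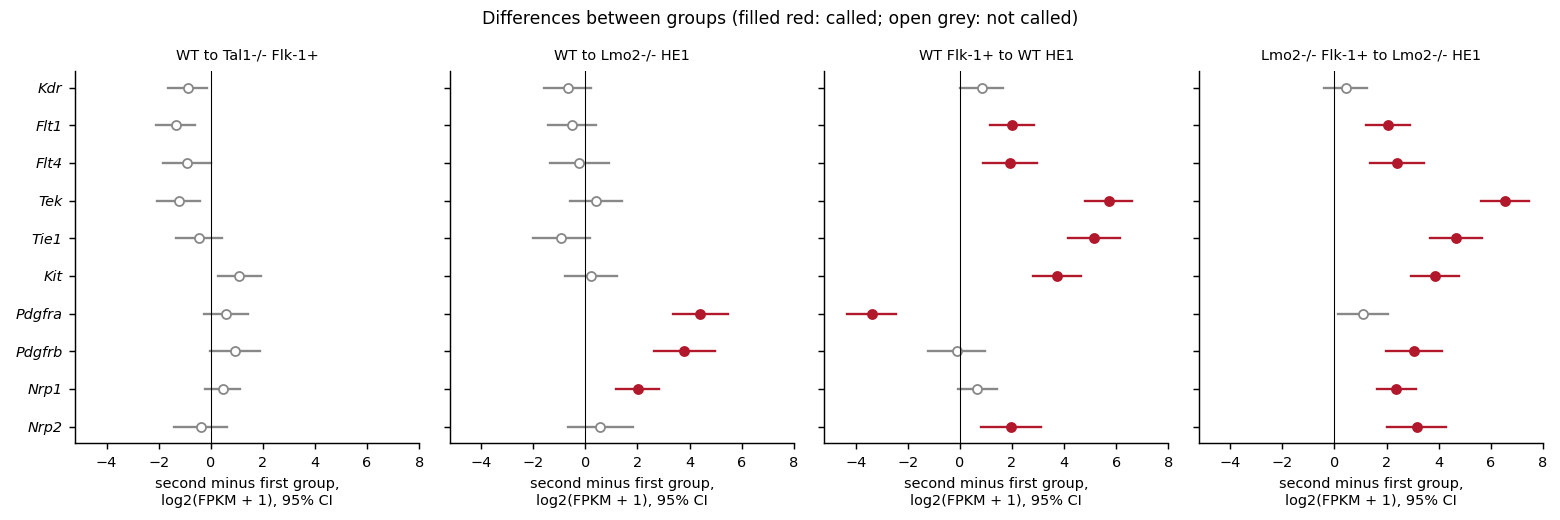
Differences of the 10 genes in 4 comparisons on the log2(FPKM + 1) scale with 95% confidence intervals from limma; filled red points passed the test and open grey points did not. The PDGF receptors and Nrp1 stand to the right in the HE1 comparison, Pdgfra stands at -3.39 in the WT step and at 1.103, not called, in the Lmo2-/- step.

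Kdr was measured at 252, 100.2 and 115 FPKM in WT, at 106, 151 and 101 FPKM in Lmo2-/- and at 86.0, 77.2 and 68.7 FPKM in Tal1-/- Flk-1+ cells. It was 236 and 275 FPKM in WT HE1, and 175 and 143 FPKM in Lmo2-/- HE1. The 3 Tal1-/- libraries were thus the lowest of the Flk-1+ cells, although all were obtained with the Flk-1 antibody, and WT replicate 0 was far above the other WT libraries. The difference of Tal1-/- from WT was -0.88 (SE 0.34, adjusted p by limma 0.731), and that from Lmo2-/- was -0.61 (SE 0.34, adjusted p by limma 0.896). In HE1 the Lmo2-/- libraries were below the WT ones, by -0.68 (SE 0.42, adjusted p by limma 0.382). The step to HE1 in WT was 0.83 (adjusted p by limma 0.209), and without WT Flk-1+ replicate 0 it was 1.24, with an adjusted p of 0.0237 by limma.

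Flt1 was measured at 27.0, 14.4 and 14.1 FPKM in WT, at 11.7, 16.6 and 8.02 FPKM in Lmo2-/- and at 6.20, 5.46 and 7.48 FPKM in Tal1-/- Flk-1+ cells. It was 72.7 and 75.2 FPKM in WT HE1, and 49.5 and 53.7 FPKM in Lmo2-/- HE1. Every Tal1-/- value was below every other Flk-1+ value, and of the 10 genes Flt1 had the lowest unadjusted p against WT. That difference was -1.35 (SE 0.35, unadjusted p 0.00175 and adjusted p 0.377 by limma), a mean 2.90-fold lower. The exact permutation p was 0.1, two-sided, the smallest that 3 against 3 libraries allow. From Flk-1+ cells to HE1 Flt1 rose by 2.004 in WT (adjusted p by limma 0.00544) and by 2.06 in Lmo2-/- cells (adjusted p by limma 0.00241). With quantile normalization the Lmo2-/- step was 1.05 and not called (adjusted p by limma 0.0902). The WT call was lost without either WT HE1 library (adjusted p by limma 0.0578 and 0.0625). Between the HE1 groups the difference was -0.51 (95% interval -1.42 to 0.40).

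Flt4 was measured at 11.6, 8.08 and 4.54 FPKM in WT, at 2.61, 7.61 and 3.71 FPKM in Lmo2-/- and at 3.97, 4.45 and 2.47 FPKM in Tal1-/- Flk-1+ cells. It was 33.5 and 30.03 FPKM in WT HE1, and 23.4 and 31.1 FPKM in Lmo2-/- HE1. It was the lowest of the VEGF receptors in every group and the HE1 groups overlapped, with a difference of -0.23 (95% interval -1.35 to 0.90). The rise to HE1 was 1.93 in WT (adjusted p by limma 0.0218) and 2.41 in Lmo2-/- cells (adjusted p by limma 0.00316). In WT that call was also lost when WT Flk-1+ replicate 1 or 2, or either WT HE1 library, was left out, with quantile normalization (1.505, adjusted p by limma 0.0772) and with the replicate number as a block (1.73, adjusted p by limma 0.051). Against WT, the Tal1-/- Flk-1+ cells differed by -0.92 (adjusted p by limma 0.818).

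The share of Kdr in the summed FPKM of the VEGF receptors lay between 81.7% and 89.6% in the 9 Flk-1+ libraries. It was 86.7%, 81.7% and 86.0% in WT and 89.4%, 88.6% and 87.35% in Tal1-/- cells, which do not overlap, while the Lmo2-/- libraries overlapped with both. The share was not tested. In HE1 it was 68.95% and 72.3% in WT and 70.6% and 62.9% in Lmo2-/- cells. All HE1 libraries were thus below all Flk-1+ libraries, with more Flt1 and Flt4 beside Kdr. The log2 ratio of Flt1 to Kdr, each with 1 FPKM added, went from -2.94 to -1.77 in WT and from -3.23 to -1.60 in Lmo2-/- cells. Each change has an exact p of 0.2, the smallest that 3 against 2 libraries allow, and an adjusted p of 0.36 over the 18 tests of ratios.

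Nrp1 was measured at 58.0, 25.3 and 40.8 FPKM in WT, at 52.9, 52.5 and 40.7 FPKM in Lmo2-/- and at 60.1, 47.5 and 56.1 FPKM in Tal1-/- Flk-1+ cells, which overlap. It was 64.0 and 61.4 FPKM in WT HE1, and 239 and 272 FPKM in Lmo2-/- HE1. The Lmo2-/- HE1 libraries were the highest of all, and the difference from WT HE1 was 2.01 (SE 0.38, adjusted p by limma 0.0112), a mean 4.07-fold higher. Without Lmo2-/- HE1 replicate 1 it was 1.91 and no longer called (adjusted p by limma 0.0663), and without either WT HE1 library it was 2.04 and 1.98 (adjusted p by limma 0.0909 and 0.0755). From Flk-1+ cells to HE1 Nrp1 rose by 2.37 in Lmo2-/- cells (adjusted p by limma 0.000564). In WT the step was 0.67 (adjusted p by limma 0.264), and the difference between the steps was 1.71 (SE 0.49, adjusted p by limma 0.161).

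Nrp2 was measured at 91.6, 29.1 and 27.6 FPKM in WT, at 20.1, 52.9 and 18.5 FPKM in Lmo2-/- and at 25.2, 38.0 and 33.9 FPKM in Tal1-/- Flk-1+ cells. It was 173 and 160.0 FPKM in WT HE1, and 269.8 and 231 FPKM in Lmo2-/- HE1. All HE1 libraries were above all Flk-1+ ones, whereas the Flk-1+ groups overlapped and had 1 high library each in WT and Lmo2-/-. Nrp2 rose to HE1 by 1.96 in WT (adjusted p by limma 0.0327) and by 3.16 in Lmo2-/- cells (adjusted p by limma 0.00123). The WT call was lost when any 1 of 4 libraries was left out, WT Flk-1+ replicate 1 or 2 or either WT HE1 library, with adjusted p from 0.117 to 0.195 by limma. It was also lost with quantile normalization, with rescaling to a common median, with no filter on low values, with only the groups compared and with the replicate number as a block, with adjusted p from 0.0501 to 0.0806 by limma. Between the HE1 groups the difference was 0.58 (95% interval -0.67 to 1.83), and the steps differed by 1.19 (adjusted p by limma 0.53). Nrp2 exceeded Nrp1 in WT HE1, by 2.71 and 2.60 times, while in Lmo2-/- HE1 the ratios were 1.13 and 0.848.

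Tek was measured at 2.27, 0.692 and 1.37 FPKM in WT, at 0.929, 1.13 and 0.337 FPKM in Lmo2-/- and was listed at 0 in the 3 Tal1-/- Flk-1+ libraries. It was 121 and 124 FPKM in WT HE1, and 176 and 154 FPKM in Lmo2-/- HE1. Tek is in the gate of HE1, so the gap between the stages is what the sort selected. On the log2(FPKM + 1) scale it was 5.71 in WT and 6.55 in Lmo2-/- cells. Within Flk-1+ cells, where Tek was not sorted for, the Tal1-/- libraries were below all others, with an unadjusted p of 0.00592 against WT and an adjusted p of 0.564 by limma. In HE1 both Lmo2-/- libraries exceeded both WT libraries, by 0.42 (95% interval -0.57 to 1.42, adjusted p by limma 0.65).

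Tie1, which was not in the gate, was measured at 0.517, 0.610 and 0.149 FPKM in WT Flk-1+ cells. In Lmo2-/- Flk-1+ cells it was listed at 0 in a pair of libraries and at 0.0837 FPKM in the other, and in Tal1-/- Flk-1+ cells it was 0.0603 FPKM or less. It was 49.9 and 48.5 FPKM in WT HE1, and 15.9 and 40.2 FPKM in Lmo2-/- HE1. Tie1 thus went from below 1 FPKM to at least 15.9 FPKM in both genotypes, and it rose by 5.15 in WT (adjusted p by limma 3.46e-05) and by 4.68 in Lmo2-/- cells (adjusted p by limma 4.2e-05). The Lmo2-/- HE1 libraries were below those of WT, by -0.93 (SE 0.51, adjusted p by limma 0.32), and differed among themselves by more than the WT pair did. The low values in Flk-1+ cells are near the limit of the data, and the separation of WT from the other genotypes at that stage was by less than 1 FPKM.

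Kit was measured at 3.96, 2.67 and 2.11 FPKM in WT, at 2.39, 4.24 and 2.88 FPKM in Lmo2-/- and at 4.58, 7.53 and 10.7 FPKM in Tal1-/- Flk-1+ cells. It was 59.8 and 42.4 FPKM in WT HE1, and 50.7 and 68.5 FPKM in Lmo2-/- HE1. The Tal1-/- libraries were the highest of the Flk-1+ cells, with no overlap with either other genotype. The difference was 1.098 from WT (SE 0.38, unadjusted p 0.0128 and adjusted p 0.655 by limma) and 1.00 from Lmo2-/- (SE 0.38, adjusted p by limma 0.771). The stage difference, selected by the sort, was 3.74 in WT and 3.87 in Lmo2-/- cells. The HE1 groups overlapped, with a difference of 0.22 (95% interval -0.79 to 1.23). Kit was thus higher in the Tal1-/- Flk-1+ libraries, in which the vascular receptors Kdr, Flt1 and Tek were at their lowest, without any of these differences passing the adjusted test.

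Pdgfra was measured at 42.8, 22.5 and 24.3 FPKM in WT, at 28.3, 27.9 and 25.3 FPKM in Lmo2-/- and at 40.9, 45.3 and 43.6 FPKM in Tal1-/- Flk-1+ cells. It was 2.98 and 1.01 FPKM in WT HE1, and 37.3 and 94.5 FPKM in Lmo2-/- HE1. WT HE1 was the group in which Pdgfra was nearly lost, and both Lmo2-/- HE1 libraries were above the Lmo2-/- Flk-1+ libraries, although replicate 0 was below WT Flk-1+ replicate 0 and the Tal1-/- libraries. In WT cells Pdgfra fell by 3.39 from Flk-1+ to HE1 (SE 0.44, adjusted p by limma 0.000396), a mean 15.0-fold lower. In Lmo2-/- cells the step was 1.103 (SE 0.44, adjusted p by limma 0.0832), and it depended on the library: it was 1.76 and called without Lmo2-/- HE1 replicate 0 (adjusted p by limma 0.0119) and 0.44 without replicate 1 (adjusted p by limma 0.56). The steps differed by 4.49 (SE 0.62, adjusted p by limma 0.0105), a call that was lost without WT HE1 replicate 0 (4.99, adjusted p by limma 0.0536) or replicate 1 (4.001, adjusted p by limma 0.0503).

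Between the HE1 groups Pdgfra was higher in Lmo2-/- by 4.42 (SE 0.48, adjusted p by limma 0.00075), a mean 33.0-fold higher. Without Lmo2-/- HE1 replicate 1, the library that stood apart, the difference was 3.76 (adjusted p by limma 0.00703). The exact permutation p was 0.333, the smallest that 2 against 2 libraries allow. In Flk-1+ cells the Tal1-/- libraries differed from WT by 0.58 (adjusted p by limma 0.952), overlapping with WT replicate 0, and from Lmo2-/- by 0.65 (adjusted p by limma 0.905), without overlap. In bulk RNA, more cells with a transcript and more transcript per cell cannot be told apart.

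Pdgfrb (chr18:61045150-61085061) was measured at 5.21, 1.79 and 1.79 FPKM in WT, at 3.69, 4.64 and 5.52 FPKM in Lmo2-/- and at 6.98, 7.07 and 4.23 FPKM in Tal1-/- Flk-1+ cells. It was 2.38 and 2.28 FPKM in WT HE1, and 30.3 and 67.7 FPKM in Lmo2-/- HE1. Unlike Pdgfra it was low in Flk-1+ cells too, and Lmo2-/- HE1 was the 1 group with over 10 FPKM. The difference between the HE1 groups was 3.80 (SE 0.55, adjusted p by limma 0.00267), and 3.23 without Lmo2-/- HE1 replicate 1 (adjusted p by limma 0.025). From Flk-1+ cells to HE1 Pdgfrb rose by 3.06 in Lmo2-/- cells (adjusted p by limma 0.00107). The steps of the genotypes differed by 3.19 (SE 0.71, adjusted p by limma 0.0716). In Flk-1+ cells the difference of Tal1-/- from WT was 0.93 (adjusted p by limma 0.846). Replicate 1 of Lmo2-/- HE1 had the higher value of both PDGF receptors, and the ratio of Pdgfra to Pdgfrb was near equal in the pair, 1.23 and 1.40.

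The sum of the smooth muscle and mesenchyme markers differed between the HE1 groups in the direction of the PDGF receptors and Nrp1, while not all of the markers did. The summed FPKM of 11 smooth muscle and mesenchyme markers was 217 to 256 in WT HE1 and 509 to 1596 in Lmo2-/- HE1, with the higher value in replicate 1. Of the 10 tested, 3 were called higher, the matrix genes Col1a1, Col3a1 and Postn, and none lower. Acta2, smooth muscle actin, was 165 and 114 FPKM in WT and 263 and 816 FPKM in Lmo2-/- HE1. The smooth muscle gene Tagln overlapped, at 50.5 and 53.7 FPKM in WT and 59.0 and 24.1 FPKM in Lmo2-/- HE1. Myl9 overlapped too, at 3.18 and 15.5 FPKM against 6.66 and 0 FPKM. The smooth muscle genes Cnn1 and Myh11 were below 1 FPKM in all HE1 libraries. The median difference of the list was 1.01, beside 0.15 over all genes. The summed cardiac markers were 80.9 to 102 FPKM in WT and 218 to 278 FPKM in Lmo2-/- HE1, a difference carried by the 1 gene of 10 tested that was called, Hand1, at 17.7 and 2.96 FPKM in WT and 117 and 210.3 FPKM in Lmo2-/- cells. The median difference of the cardiac list was 0, and Mef2c, Hand2 and Tnnt2 had lower values in both Lmo2-/- libraries. Gata4 had higher values in both, at 71.9 and 52.0 FPKM against 37.8 and 40.3 FPKM in WT HE1, and was not called. Endothelial markers summed to 1163 to 1307 FPKM in WT and 796 to 1011 FPKM in Lmo2-/- HE1. Of the 14, 1 was called lower (Sox18), and the median difference over the list was -1.37. Pecam1 and Eng went the other way, with higher values in both Lmo2-/- libraries. Pecam1 was 109 and 124 FPKM in WT and 167 and 144 FPKM in Lmo2-/- HE1. Eng was 83.4 and 77.6 FPKM in WT and 96.7 and 200 FPKM in Lmo2-/- HE1. The part of these cell types in the receptor values was not tested. Paraxial mesoderm markers summed to at most 3.82 FPKM and blood markers to at most 19.8 FPKM in HE1, with none called, and pluripotency markers to at most 3.58 FPKM. Most of the blood sum was Itga2b, at 15.4 and 10.4 FPKM in WT and 19.8 and 0 FPKM in Lmo2-/- HE1. It is the gene of CD41, which the HE1 gate excluded.

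In Flk-1+ cells the endothelial markers summed to 93.2 to 147 FPKM in WT, 60.8 to 102 FPKM in Lmo2-/- and 35.0 to 63.8 FPKM in Tal1-/- cells. The Tal1-/- sums lay below the WT ones without overlap, in the direction of Kdr, Flt1, Flt4, Tek and, below 1 FPKM, Tie1. None of the 14 markers was called. Esam, Emcn, Icam2 and Sox18 were listed at 0 in all Tal1-/- libraries. Emcn was also at 0 in all other Flk-1+ libraries, and Icam2 in all Lmo2-/- ones. In WT Flk-1+ cells Icam2 and Sox18 were at most 0.46 and 0.397 FPKM, and Esam was 0.614 to 3.61 FPKM. Cdh5, Egfl7, Erg, Fli1 and Sox17 were lower in every Tal1-/- than in every WT library. Eng, Pecam1, Etv2, Ramp2 and Cd34 overlapped between these genotypes. The smooth muscle and mesenchyme markers summed to 16.1 to 27.7 FPKM in WT, 29.5 to 37.4 FPKM in Lmo2-/- and 31.9 to 44.3 FPKM in Tal1-/- cells. Their median difference between WT and Tal1-/- cells was 0.03. Within the list Col1a1 was 4.54 to 12.8 FPKM in WT, 15.9 to 26.9 FPKM in Lmo2-/- and 16.2 to 30.3 FPKM in Tal1-/- cells. Tagln went the other way, at 2.98 to 7.52 FPKM in WT and at most 1.33 FPKM in Tal1-/- cells. The pluripotency markers summed to 16.2 to 17.04 FPKM in WT, 10.8 to 11.4 FPKM in Lmo2-/- and 17.6 to 30.3 FPKM in Tal1-/- cells. The sums of both lists were higher in every Tal1-/- than in every WT library, with no marker of either list called. The smooth muscle and mesenchyme sums were also higher in every Lmo2-/- than in every WT library. The pluripotency sums of WT and Tal1-/- cells separated narrowly, at 17.04 against 17.6 FPKM. Of these markers Pou5f1 overlapped, at 7.91 to 13.6 FPKM in WT and 2.70 to 16.4 FPKM in Tal1-/- cells. Below 1 FPKM, Esrrb was lower and Zfp42 higher in every Tal1-/- than in every WT library. The sums of the paraxial mesoderm and cardiac lists overlapped between WT and Tal1-/- cells. They were 8.03 to 13.8 and 124 to 224 FPKM in WT, and 6.80 to 10.1 and 159 to 243 FPKM in Tal1-/- cells. Their median differences were -0.54 and -0.51. The blood markers summed to 6.77 to 10.9 FPKM in WT, 0.930 to 2.55 FPKM in Lmo2-/- and 0 to 6.71 FPKM in Tal1-/- cells. The sums of both knockouts thus lay below those of WT without overlap, narrowly so for Tal1-/-. The median differences of the 5 blood markers tested were -0.93 for Lmo2-/- and -1.06 for Tal1-/-, with none called. The part of these cell types in the receptor values was not tested.

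Within a library, the ratios of the 3 neighbours on chromosome 5 leave out the scaling between libraries. Pdgfra was 0.170, 0.225 and 0.211 times Kdr in WT, 0.266, 0.185 and 0.25 times in Lmo2-/- and 0.475, 0.588 and 0.635 times in Tal1-/- Flk-1+ cells. It was 0.0126 and 0.00367 times Kdr in WT HE1, against 0.213 and 0.659 times in Lmo2-/- HE1. The Tal1-/- Flk-1+ cells thus had a higher share of Pdgfra than both other genotypes in every library, by 1.46 over WT and 1.26 over Lmo2-/- on the log2 scale with 1 FPKM added. Both have an exact p of 0.1 and an adjusted p of 0.36 over the 18 tests. Between the HE1 groups the log2 ratio differed by 5.10 (exact p 0.333, the smallest possible).

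Kit was 0.0157, 0.0267 and 0.0184 times Kdr in WT, 0.0225, 0.0281 and 0.0284 times in Lmo2-/- and 0.0532, 0.0976 and 0.155 times in Tal1-/- Flk-1+ cells. The Tal1-/- values were again the highest, by 1.98 over WT and 1.61 over Lmo2-/- on the log2 scale, both with an exact p of 0.1. In HE1 the ratio was 0.254 and 0.154 in WT and 0.289 and 0.477 in Lmo2-/- cells, a log2 difference of 0.90 with an exact p of 0.333. None of the 18 ratio tests passed the adjustment, and with these numbers of libraries none could.

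**Figure D3:**
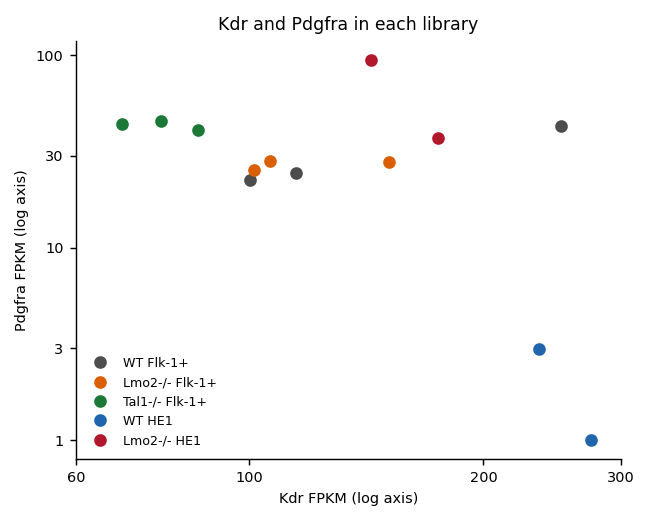
Pdgfra against Kdr in each of the 13 libraries, in FPKM on log axes, coloured by group. The Tal1-/- Flk-1+ libraries lie to the left, at 68.7 to 86.0 FPKM of Kdr, and the WT HE1 libraries at the bottom right, at 2.98 FPKM of Pdgfra or less.

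Of 20 ligand genes of these receptors, 16 were tested. None was called in any comparison of Flk-1+ cells. In HE1 the angiopoietin genes Angpt1 and Angpt2 were called higher in Lmo2-/- than in WT, 2 of 16 against 2.15% of all genes, and none was called lower. The median over the list was 0.42, beside 0.15 over all genes. Below the level needed for a call, the PDGF ligand genes Pdgfa and Pdgfd differed in opposite directions, by 2.82 and -1.90 (adjusted p by limma 0.0321 and 0.012). Pdgfd was 3.86 and 3.73 FPKM in WT and 0.652 and 0 FPKM in Lmo2-/- HE1. Angpt1, the agonist of TEK, was 0.695 and 0.449 FPKM in WT and 12.8 and 11.05 FPKM in Lmo2-/- HE1. Angpt2, which acts as antagonist or agonist of TEK by context, was 0 and 0.396 FPKM in WT and 7.79 and 19.0 FPKM in Lmo2-/- HE1. Both were at or near 0 in all Flk-1+ libraries, with at most 0.762 FPKM. The differences were 3.04 (SE 0.36, adjusted p by limma 0.0011) and 3.49 (SE 0.47, adjusted p by limma 0.00218), and the interaction with stage was called for both, at 3.06 and 3.76 (adjusted p by limma 0.0162 and 0.0234). With only the groups compared in the fit, 0 ligands were called in either comparison.

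Pdgfb, the endothelial ligand of the PDGF receptors, was 1.48 to 5.11 FPKM in the Flk-1+ libraries. It was 49.8 and 44.5 FPKM in WT HE1, and 42.8 and 11.4 FPKM in Lmo2-/- HE1. It rose by 3.75 in WT (adjusted p by limma 0.0017) and by 2.67 in Lmo2-/- cells (adjusted p by limma 0.00651), and it was the 1 ligand of the list called in WT. Pdgfd and Sema3e also had an adjusted p under 0.05 by limma in the WT step, at 2.18 and 2.36 (adjusted p 0.00108 and 0.00408), and were not called because no group mean exceeded 10 FPKM. The stem cell factor gene Kitl rose with Angpt1, Angpt2 and Pdgfb in Lmo2-/- cells, by 2.08 (adjusted p by limma 0.0106). These 4 of 16 stand beside 17.2% of all genes called higher in that step. Vegfa, the ligand with the highest mean over the libraries, 49.5 FPKM, ranged from 8.14 to 103 FPKM in Flk-1+ cells and from 29.9 to 72.2 FPKM in HE1 with no call. Vegfb followed at a mean of 14.7 FPKM, likewise with no call.

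**Figure D4:**
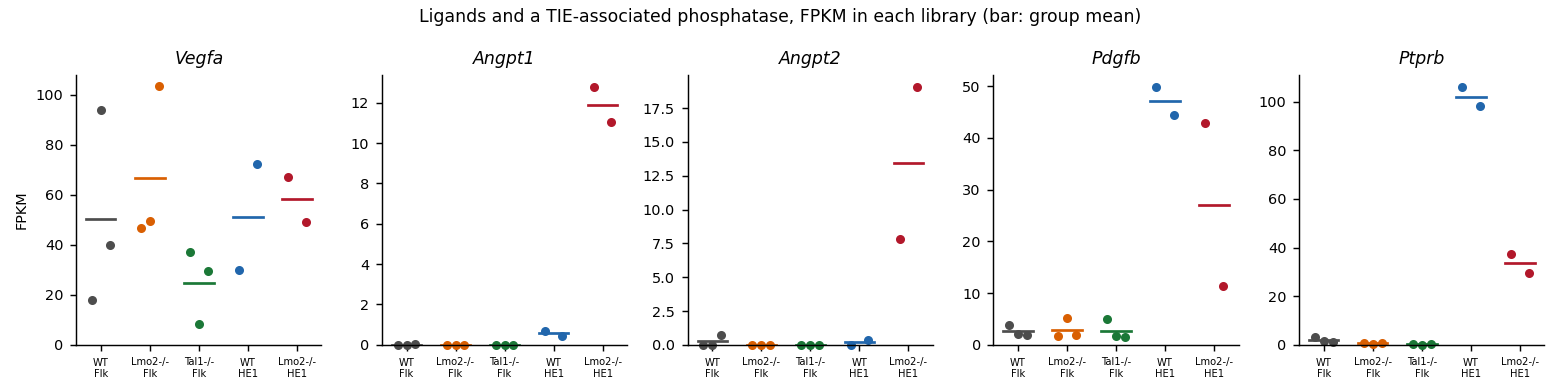
FPKM of Vegfa, Angpt1, Angpt2, Pdgfb and Ptprb in each of the 13 libraries; points are libraries and bars group means, and each axis starts at 0. Angpt1 and Angpt2 stand out in Lmo2-/- HE1, Pdgfb and Ptprb rise with HE1, and Vegfa varies as much within groups as between them.

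Of 8 related receptors and partners, 6 were tested. Ptprb, a phosphatase of the vascular endothelium that acts on TEK, was 0.142 to 3.22 FPKM in Flk-1+ cells, 106 and 98.2 FPKM in WT HE1 and 37.3 and 29.6 FPKM in Lmo2-/- HE1. It rose by 5.13 in WT (adjusted p by limma 1.91e-05) and by 4.39 in Lmo2-/- cells (adjusted p by limma 3.85e-05). Plxnd1, an endothelial semaphorin receptor, rose by 3.27 and 2.28 (adjusted p by limma 0.0083 and 0.0263), to 300 and 253 FPKM in WT and 162 and 123 FPKM in Lmo2-/- HE1. Plxna4, a semaphorin receptor that pairs with neuropilins, moved like Pdgfra. It fell by 2.05 in WT (adjusted p by limma 0.0126), to 3.18 and 3.02 FPKM, and was 2.29 higher in Lmo2-/- than in WT HE1 (adjusted p by limma 0.0215), at 10.5 and 34.0 FPKM. Plxna1, the related receptor with the highest mean, 92.7 FPKM, rose in Lmo2-/- cells by 1.70 (adjusted p by limma 0.034). The blood cell receptors Csf1r and Flt3, relatives of Kit, were listed at 0.54 FPKM or less in every library.

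All 22 signalling proteins listed were tested, and none was called between genotypes at either stage. From Flk-1+ cells to HE1, 3 were called higher in WT (Akt1, Plcg1 and Gab1, against 6.04% of all genes) and 10 in Lmo2-/- cells (against 17.2%), with medians of 0.67 and 1.18 beside 0.11 and 0.30 over all genes. Plcg1, the phospholipase through which KDR signals, rose by 1.37 in WT (adjusted p by limma 0.0227), from 18.5 to 24.8 FPKM to 67.5 and 52.7 FPKM. The adaptor Gab1 rose by 1.87 and 1.93 and the kinase Akt1 by 1.61 and 1.57 in the 2 genotypes (adjusted p by limma 0.00476, 0.00205, 0.0383 and 0.0217). In Lmo2-/- cells the largest rises of the list were those of the PI3 kinase subunits Pik3ca (3.18) and Pik3r1 (2.19) and of the adaptor Crk (2.14), with adjusted p by limma of 0.00411, 0.00104 and 0.00367. The mean levels of Mapk3 and Crk over the libraries were 64.5 and 43.7 FPKM.

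The genes whose pattern over the 13 libraries was most like that of 4 of the receptors were found among 7281 tested genes with a group mean above 10 FPKM, by the mean absolute difference of centred log2(FPKM + 1) values. For Kdr these were Lhfp, Strn and Ywhaz, at 0.24, 0.27 and 0.27. For Tek they were Arhgap31, Cdh5 and Acta2, at 0.39, 0.50 and 0.56, and for Kit they were Peak1, Arhgap29 and Pcdh1, at 0.29, 0.37 and 0.37. Cdh5, the endothelial cadherin, had group means of 3.60 FPKM in WT, 1.72 FPKM in Lmo2-/- and 0.195 FPKM in Tal1-/- Flk-1+ cells, and of 438 and 323 FPKM in WT and Lmo2-/- HE1. For Pdgfra they were Ptpn13, Cdh11 and Gas1, at 0.36, 0.39 and 0.43. Cdh11, a mesenchymal cadherin, was at 41.5, 30.5 and 61.8 FPKM in the same Flk-1+ groups, 2.46 FPKM in WT HE1 and 51.9 FPKM in Lmo2-/- HE1. These genes are named for their likeness over libraries that share their groups.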

How the data were processed

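The authors aligned the RNAseq reads to GRCm38 with TopHat2 2.0.9, assembled transcripts with Cufflinks 2.0.0 and deposited an FPKM for each library from Cuffnorm, and these were taken as deposited. All 13 library columns were used, so 0 were left out. Gene names and positions come from the deposited FPKM of the conditions. A further table holds the fold changes and p-values of the authors' own comparisons and was not used. The files hold no counts, so depth is unknown and no counting interval can be given. ChIPseq and DNaseI data were not analysed here.

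Genes were tested where the locus exceeded 200 bp and at least 2 libraries reached an FPKM of 1, which left 13802 of 45250. Group means (5 groups) of log2(FPKM + 1) over the 13 libraries were modelled in limma 3.58.1 (R 4.3.3) with its trend option. Fold changes on this scale understate the change of low genes. All p-values are two-sided, with Benjamini-Hochberg adjustment over the tested genes, and calls needed an adjusted p under 0.05 and a group mean over 10 FPKM. Ratios and single genes had exact permutation tests, and the 18 ratio tests were adjusted together. Other steps used Python 3.11.15 (numpy 2.4.6, pandas 2.3.3, scipy 1.17.1, matplotlib 3.10.9). The fit was tested on simulated data.

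The 10 genes and the lists were chosen with earlier results of these data known. All 10 are named. Of each list the called genes, up to 3 in each direction, and the 3 with the highest mean FPKM are named, except 1 gene that is not reported here, together with the 3 genes most like Kdr, Tek, Kit and Pdgfra. Further ligands, receptors and markers were named after their values were seen. Alternatives were a pseudocount of 0.1, other filters, scalings and variance models, separate fits, a replicate block and each library left out.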

Additional observations from a re-analysis of the deposited data

Results flagged for a closer look

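The step of Pdgfra from Flk-1+ cells to HE1 differed between the genotypes by a test of the difference itself, the interaction of genotype and stage, at 4.49 on the log2(FPKM + 1) scale (SE 0.62, adjusted p by limma 0.0105). In WT cells both HE1 libraries were below all Flk-1+ libraries, and in Lmo2-/- cells both were above them. The Lmo2-/- step alone was 1.103 and was not called. The call of the interaction was lost with only the groups compared in the fit (4.49, adjusted p by limma 0.0525). It was also lost without WT HE1 replicate 0 or replicate 1, at 4.99 and 4.001.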

How the results depend on the processing

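In the comparisons of Flk-1+ cells 0 members were called under every alternative run. With only the groups compared in the fit, 0 of the 10 genes were called between the HE1 groups and 0 in the interaction, a fit with fewer libraries (2 against 2 between the HE1 groups). The same fit called 0 ligands in both and 0 related receptors between the HE1 groups, and with no filter on low values 1 related receptor was called in the Lmo2-/- step in place of 3. Leaving out each library in turn gave 2 to 3 calls between the HE1 groups, 4 to 8 in the WT step, 8 to 9 in the Lmo2-/- step, 0 to 2 in the interaction and 0 to 0 in the Flk-1+ comparisons; a lone library was then assumed to vary like the others. The 4 calls in the WT step came without either WT HE1 library, the 0 of the interaction likewise, and its 2 without Lmo2-/- HE1 replicate 0. Pdgfra and Pdgfrb kept their HE1 call under all other alternatives, and Nrp1 lost it with quantile normalization (1.57, adjusted p by limma 0.0509) and with array weights (adjusted p by limma 0.14).

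Between the HE1 groups the sign of uncalled differences turned with quantile normalization for Tek (-0.12), Kit (-0.33) and Nrp2 (-0.0157), and for Kit also with rescaling to a common median (-0.00727) and without WT HE1 replicate 1 (-0.0208, range -0.0208 to 0.47). Without Lmo2-/- HE1 replicate 1 the log2 ratio of Pdgfra to Kdr in the Lmo2-/- step was -0.13 (range -0.13 to 1.48), and that of Flt1 to Kdr between the HE1 groups was -0.0311 (range -0.0311 to 0.37). Quantile normalization also moved the calls over all genes, from 834 higher and 130 lower to 464 and 260 in the WT step, from 2379 and 328 to 685 and 563 in the Lmo2-/- step, and from 297 and 118 to 123 and 89 between the HE1 groups.

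The replicate numbers come from column names and were not shown to pair the libraries, since the correlations of same-numbered deviations ran from -0.18 to 0.17. With the replicate number as a block, the WT step lost its calls of Flt4 and Nrp2, and 0, 0 and 0 of the 10 genes were called in the Flk-1+ comparisons, 3 between the HE1 groups, 5 in the WT step, 8 in the Lmo2-/- step and 1 in the interaction. The depth is unknown, so the precision of low values, such as those of Tek and Tie1 in Flk-1+ cells, cannot be given.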
